A study of Mus musculus with 2 samples.

Results

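MPP4 gate cells without Dntt are bone marrow progenitors gated on CD135 and CD150, 2 of the surface tags used for lymphoid-biased multipotent progenitors. No transcript of Dntt, the template-independent DNA polymerase transcribed in early lymphoid priming, was detected in these cells. They were selected on measured values in single-cell RNA and surface-protein profiles. A member had a centred log ratio (CLR, the log of the tag count minus the mean log over all tags of the cell) of at least -0.43 for CD135, the FLT3 receptor, a CLR below 1.56 for CD150, and 0 Dntt UMIs (unique molecule counts). Of 7967 kept cells 1400 were members, 795 of 3969 control cells and 605 of 3998 cells after the chelator. The rule did not use CD48, and part of the members lay below the CLR of 0.534 that marked CD48-positive cells. The 10th percentile of their CD48 CLR was -0.645 in control and -0.638 in the chelator pool. The values of CD135, CD150 and Dntt chose the cells, so they are given as a description, as are genes that differ between members and the cells with Dntt in the same gate.

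Multipotent progenitors lie between haematopoietic stem cells (HSCs) and the committed lineages. In the mouse the FLT3-expressing subset, MPP4, is known for lymphoid bias with a retained myeloid potential. FLT3 is a receptor tyrosine kinase whose ligand sustains early lymphoid and dendritic cell development. Dntt adds bases to the joints of rearranging antigen receptor genes and is transcribed early on the lymphoid path, together with Il7r, which encodes a chain of the interleukin 7 receptor.

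The cells were LSK cells (no lineage markers, with Sca-1 and c-Kit) sorted from the bone marrow of mice that were about 6 months old when the regimen began. Deferoxamine, an iron chelator, was given at 50 mg/kg to one group and the vehicle HBSS to the other, each daily for 7 days in every 4 weeks, over 13 months. Neither the strain nor the number of mice is stated in the labels. Each condition gave 1 pool of cells, told apart by its hashtag within 1 common loading. No value therefore has a replicate, and the intervals cover counting error alone. Both pools held female cells, which carry Xist RNA, and male cells, which carry Y-linked transcripts. These are called Xist cells and Y cells. Xist cells made up 41.4% of the sexed members in control and 25.5% in the chelator pool, so values of both sexes accompany the pooled ones.

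The members gave 12007138 gene UMIs in control and 9478345 in the chelator pool, with medians of 12937 and 13461 UMIs, 4114 and 4221 genes and 2.03% and 2.01% mitochondrial UMIs per cell. Members with markers of both sexes, which can be mixed droplets, numbered 1 and 4. The own hashtag was the stronger in all 795 and 605 members, and no barcode occurred in both matrices. The pools were told apart by hashtag, so both follow from that assignment and do not measure mixed droplets. Levels are given as counts per 1000000 gene UMIs (CPM), control first and chelator second. They compare a gene between groups of cells, not one gene with another.

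The marker genes named with these cells were present in them, at levels that differed from some of the neighbouring classes and not from others. Flt3, which encodes CD135 itself, was at 150 and 148 CPM in members. This lay between the cells with Dntt of the same gate, at 399 and 365 CPM, and the MPP3 gate (CD48-positive alone, a myeloid-biased class), at 101 and 129 CPM. It was far above the HSC gate (CD150-positive, CD135- and CD48-negative), at 7.11 and 8.86 CPM. After each cell was thinned to 5000 UMIs, Flt3 was detected in 47.1% and 43.7% of members against 2.39% and 3.61% of HSC gate cells.

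Cd34, a sialomucin of progenitors, was at 480 and 494 CPM in members, 606 and 583 CPM in cells with Dntt, 457 and 487 CPM in the MPP3 gate and 73.5 and 73.1 CPM in the HSC gate. Mgst1, a microsomal glutathione transferase, was at 22.7 and 27.9 CPM, above the 17.0 and 15.1 CPM of cells with Dntt and the 14.6 and 19.3 CPM of the MPP3 gate and close to the 24.8 and 25.9 CPM of the MPP1 gate, whose cells are negative for CD135, CD48 and CD150. Flt3 and Cd34 were thus far above the HSC gate in members. The rule used CD135, which Flt3 encodes, and the HSC gate is CD135-negative, so this contrast in Flt3 is a description. In the MPP1 gate Flt3 was at 74.1 and 73.1 CPM. Mgst1 was above the cells with Dntt and the MPP3 gate but not called against the MPP1 gate. In the GRCm38.p6 annotation of RefSeq, Flt3 lies on chromosome 5 (147330741 to 147400489), Cd34 on chromosome 1 (194938821 to 194961292), Mgst1 on chromosome 6 (138140527 to 138156755) and Dntt on chromosome 19 (41029275 to 41059525).

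**Figure D1:**
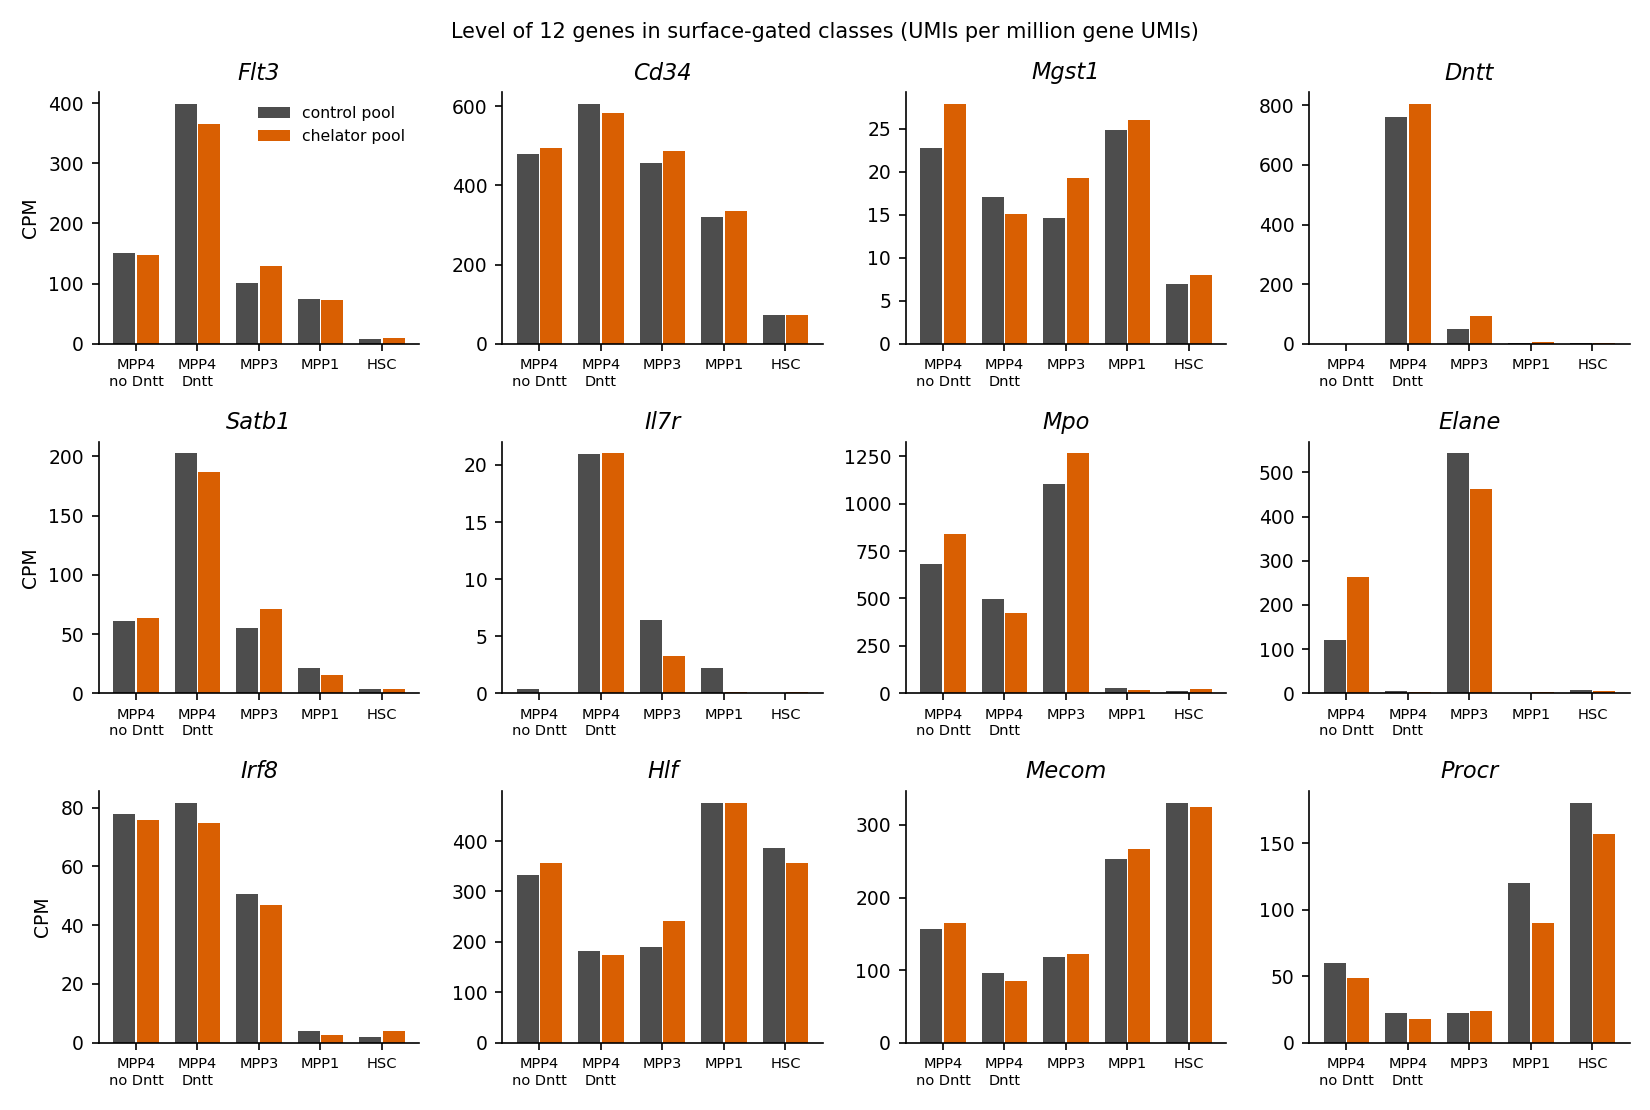
Bars give the level in CPM of 12 genes (1 per panel, linear axis from 0) in 5 classes of cells, with the control pool in grey and the chelator pool in orange, 1 pool each and no error bar. Members, the first pair of bars, held less Flt3 and Satb1 than MPP4 gate cells with Dntt (150 against 399 CPM of Flt3 in control) and more Hlf, Mecom and Procr.

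The edges of the rule showed a gradual boundary. Within 0.25 of the CD135 threshold, 242 control and 234 chelator members just inside had 101 and 99.9 CPM of Flt3, and 266 and 241 cells just outside had 86.7 and 89.7 CPM. Satb1, a chromatin organiser of lymphoid priming, was at 53.4 and 49.1 CPM just inside and at 31.2 and 34.5 CPM just outside. Few cells lay at the CD150 threshold, 31 and 14 inside and 24 and 11 outside.

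A count of 0 for Dntt depends on the depth of the cell. Among MPP4 gate cells of the lowest quartile of gene UMIs, 70.0% of control and 69.9% of chelator cells had no Dntt UMI, and in the highest quartile 39.6% (34.3 to 45.2, 95% Clopper-Pearson) and 30.8% (26.2 to 35.8). With every cell thinned to 5000 UMIs these shares were 75.3% and 73.8% in the lowest and 57.3% and 49.9% in the highest quartile. Cells without Dntt were thus also commoner among shallow cells at equal depth. The members had lower medians of UMIs than the cells with Dntt, which had 16786 and 18743.

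**Figure D2:**
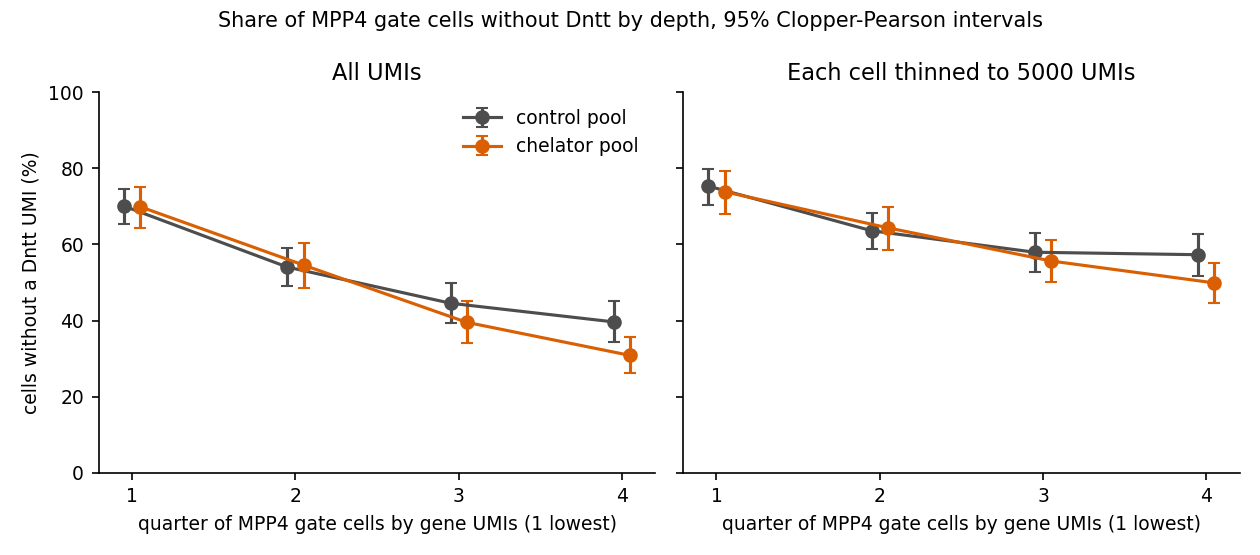
Points give the percentage of MPP4 gate cells with no Dntt UMI in each quartile of gene UMIs per cell (1 lowest), for the control pool in grey and the chelator pool in orange, with 95% Clopper-Pearson intervals; the left panel uses all UMIs and the right panel 5000 UMIs per cell. The share without Dntt falls with depth in both panels, from 70.0% to 39.6% in control at full depth.

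Dntt was nevertheless not a uniform background. A Dntt UMI was seen in 47.1% of control and 52.7% of chelator cells of the MPP4 gate, in 22.1% and 29.8% of the MPP3 gate, in 3.08% and 5.11% of the MPP1 gate and in 1.54% and 1.98% of the HSC gate. At 5000 UMIs per cell the shares were 36.5% and 40.4% in the MPP4 gate and 0.619% and 0.786% in the HSC gate. The HSC gate shows how often the RNA occurs in cells that should lack it, at median depths of 12703 and 13312 UMIs that are close to those of the members.

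Within the MPP4 gate the lymphoid and stem cell genes followed the number of Dntt UMIs in steps. In control, Satb1 was at 61.3 CPM in members, 120 CPM in the 137 cells with 1 Dntt UMI, 162 CPM with 2 to 5, 212 CPM with 6 to 20 and 283 CPM with over 20. Flt3 took the same course from 150 to 280, 352, 430 and 484 CPM. Hlf, a transcription factor of stem cells, went the other way, at 333, 310, 234, 163 and 71.3 CPM. Cells with 1 Dntt UMI therefore lay between members and the rest in Satb1 and Flt3 and were near the members in Hlf. Elane, neutrophil elastase, was at 120 CPM in control members and at 11.7, 6.52, 2.35 and 1.11 CPM in the later steps. In these members 2 cells held 938 of the 1446 Elane UMIs. In the chelator pool Elane was at 263 CPM in members and at 1.96, 2.16, 3.04 and 2.01 CPM later, without a stepwise fall. Deeper cells held more Dntt UMIs, with medians from 12937 to 21601 UMIs over the steps in control. The part of depth in the steps was not tested.

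Against MPP4 gate cells with Dntt, members had fewer transcripts of lymphoid priming and of mitosis and more of stem cell and megakaryocyte genes, while granulocyte-monocyte genes were split. A gene was called when the log2 ratio of CPM was at least 0.32 in size, its 95% interval left out 0 in both pools in the same direction, and both classes together held at least 200 UMIs. Of 10614 genes measured, 768 were called higher in members (7.24%) and 456 lower (4.30%). The median log2 ratio of all genes measured was 0.030 in control and 0.038 in the chelator pool.

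Of 19 measured lymphoid priming genes 16 were called lower and 0 higher in members, with medians of -1.90 and -1.55. Satb1 was at 61.3 and 63.8 CPM against 202 and 187 CPM, and Notch1, a receptor needed for T cell fate, at 16.9 and 17.5 CPM against 49.3 and 48.8 CPM. Il7r gave 5 UMIs in control and 0 in chelator members, where cells with Dntt were at 21.0 CPM in both pools. In thinned cells it was seen in 0 of 747 and 0 of 570 members, which allows a share of cells with a UMI of up to 0.493% and 0.645% (Clopper-Pearson). The genes at the lowest ratios included the B cell adaptor Blnk, the recombinase gene Rag2 (14 and 16 UMIs), Arpp21, Cmah and the dendritic cell gene Cox6a2, at 1.5 and 0.95 CPM against 38.6 and 50.2 CPM.

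Stem cell identity genes stood out in the other direction. Of 16 measured 13 were called higher and 0 lower, with medians of 0.85 and 1.0. Hlf was at 333 and 356 CPM against 182 and 173 CPM in cells with Dntt, and Mecom, a zinc-finger regulator of HSC maintenance, at 157 and 165 CPM against 95.9 and 84.7 CPM. Procr, the endothelial protein C receptor and a marker of HSCs, was at 59.8 and 48.6 CPM against 22.5 and 17.8 CPM. In these genes the members still lay below the HSC gate for Mecom (330 and 324 CPM) and Procr (180 and 157 CPM), while Hlf in the HSC gate was at 387 and 357 CPM. Nupr1, a stress-linked chromatin protein of quiescent stem cells, was at 10.8 and 12.6 CPM against 0.835 and 0.951 CPM. Of 11 measured genes that rise in aged stem cells 9 were called higher, among them Aldh1a1, a retinal dehydrogenase, at 17.6 and 16.8 CPM against 1.52 and 2.27 CPM. These levels were not particular to members. Hlf, Mecom, Procr, Nupr1 and Aldh1a1 were all called lower in members than in the MPP1 gate. Nupr1 was at 53.9 and 62.3 CPM and Aldh1a1 at 42.5 and 49.3 CPM in that gate.

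Megakaryocyte and erythroid genes were also higher, some of them from few cells. Of 9 megakaryocyte genes 8 were called higher, led by Pf4, platelet factor 4, at 20.6 and 18.3 CPM against 2.58 and 2.27 CPM. A UMI of Pf4 was seen in 14.2% and 15.7% of members. Of 12 erythroid genes 7 were called higher and 1 lower. Apoe, on the erythroid list, was at 115 and 108 CPM against 14.8 and 12.7 CPM. It was seen in 42.5% and 45.1% of members. Gata1, the erythroid and megakaryocytic transcription factor, was at 13.2 and 11.4 CPM against 0.835 and 0.439 CPM, and only 4.28% and 5.12% of members held a UMI of it. Klf1, an erythroid activator, was seen in 2.77% and 2.81% of members. Against the MPP1 gate, where Pf4 was at 48.5 and 63.5 CPM, Pf4, Apoe and Klf1 were called lower in members and Gata1 was not called.

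Genes of the granulocyte-monocyte list were split, with 7 of 18 called higher and 3 lower and medians of 0.17 and 0.36. Mpo, myeloperoxidase, was at 682 and 838 CPM in members and 496 and 421 CPM in cells with Dntt, yet at 5000 UMIs a UMI of it was seen in 32.5% and 33.3% of members and in 49.1% and 52.4% of cells with Dntt. Level and share go opposite ways, so no order is read from them, and the 98th-percentile limit on UMIs per cell turned the log2 ratio nearer to 0 from 0.46 to -0.12. Elane was at 120 and 263 CPM against 4.71 and 2.34 CPM, and Ms4a3, a granulocyte-monocyte progenitor gene, at 18.3 and 29.8 CPM against 0.531 and 1.83 CPM. Both came from few cells, with Elane in 4.91% and 6.61% of members. Irf8, a regulator of monocyte and dendritic fate, was at 77.7 and 75.8 CPM against 81.5 and 74.8 CPM.

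Of 26 genes of G2 and mitosis 18 were called lower in members and 0 higher, with medians of -0.51 and -0.52, whereas 0 of 28 S phase genes were called. At 5000 UMIs a member held a median of 6 UMIs of S phase genes in both pools, a cell with Dntt 9 and 11, an MPP3 gate cell 14 and 13, an MPP1 gate cell 4 and 4 and an HSC gate cell 3 and 3. The mean for the G2 and mitosis genes was 7.52 and 7.47 UMIs in members and 11.4 and 11.8 in cells with Dntt. The medians of members for S phase genes were thus above those of the HSC and MPP1 gates and below those of the MPP3 gate and the cells with Dntt. Of 16 glycolysis genes 5 were called higher, among them the hexokinase genes Hk1 and Hk2.

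Against the MPP3 gate fewer genes were called. Of 10501 genes 333 were called higher in members (3.17%) and 142 lower (1.35%), where the median log2 ratio of all genes was 0.039 and 0.031. Dividing the ratios by the median of well-measured genes gave 294 and 171. Of the stem cell genes 10 were higher, and 10 of 19 granulocyte-monocyte genes were lower and 1 higher, with medians of -0.44 and -0.34.

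Of 19 measured stem cell genes 10 were called higher than in the MPP3 gate and 0 lower, with medians of 0.57 and 0.52. Procr was at 59.8 and 48.6 CPM in members against 22.5 and 23.7 CPM, and Hlf at 333 and 356 CPM against 190 and 241 CPM. Elane lay at 120 and 263 CPM against 543 and 462 CPM, Ms4a3 at 18.3 and 29.8 CPM against 64.1 and 52.5 CPM and Mpo at 682 and 838 CPM against 1100 and 1260 CPM. Slpi, a secreted inhibitor of leukocyte proteases, was among the lowest ratios, at 10.7 and 17.4 CPM against 215 and 319 CPM. Satb1 did not separate the classes, at 61.3 and 63.8 CPM in members and 54.7 and 71.1 CPM in the MPP3 gate, and of 14 lymphoid genes 3 were called lower. Of 28 S phase genes 8 were called lower and of 26 G2 and mitosis genes 2. Among the highest ratios were Gas6, a ligand of the TAM receptors (11.4 and 11.5 CPM against 2.42 and 4.93 CPM), Cpne8, a calcium-binding copine, and Wfdc17, a secreted protein of the whey acidic protein family (48.2 and 53.9 CPM against 17.5 and 24.2 CPM). Cpne8 was at 14.6 and 12.6 CPM in members but higher in the MPP1 gate, at 36.1 and 35.3 CPM. Gas6 was not called between members and the MPP1 gate, where it was at 16.7 and 14.3 CPM.

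The members were far from uniform along the CD48 tag, which the rule did not use. They were split into tertiles of the CD48 CLR over both pools, with 276 and 191 cells in the lowest, 269 and 197 in the middle and 250 and 217 in the highest. Mpo was at 28.6 and 21.8 CPM in the lowest tertile, 133 and 368 CPM in the middle and 1512 and 1601 CPM in the highest. Cebpa, the transcription factor of granulocyte-monocyte fate, was at 9.11 and 10.7, 19.7 and 14.3, and 46.4 and 48 CPM. Most myeloid transcripts of the members thus lay in the CD48-high tertile, whose Mpo level was above the mean of the MPP3 gate.

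The stem cell genes fell along the same axis. Hlf was at 554 and 532 CPM in the lowest tertile, 372 and 448 CPM in the middle and 165 and 197 CPM in the highest, Mecom at 252 and 264, 167 and 189, and 88.1 and 93.9 CPM, and Procr at 125 and 105, 59.4 and 54.7, and 18.5 and 13.8 CPM. In the CD48-low tertile Hlf was above the HSC gate mean. The MPP1 gate was near this tertile in Mecom (253 and 267 CPM) and Procr (120 and 90.1 CPM). Its Hlf was somewhat lower, at 475.5 CPM in both pools. Satb1 did not fall with the stem cell genes along CD48, at 33.0 and 31.2, 62.6 and 61.7, and 78.3 and 83.1 CPM. Flt3 was about level, at 146 and 126, 165 and 172, and 142 and 143 CPM. Mki67, a mitosis marker, was at 140 and 181 CPM in the lowest and 326 and 319 CPM in the highest tertile. Egr1, an immediate-early transcription factor, was at 170 and 229 CPM in the lowest and 31.3 and 39.6 CPM in the highest. The median depth was 10905 and 11354 UMIs in the lowest and 18244 and 18784 in the highest tertile, which CPM does not carry but which moves with CD48.

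**Figure D3:**
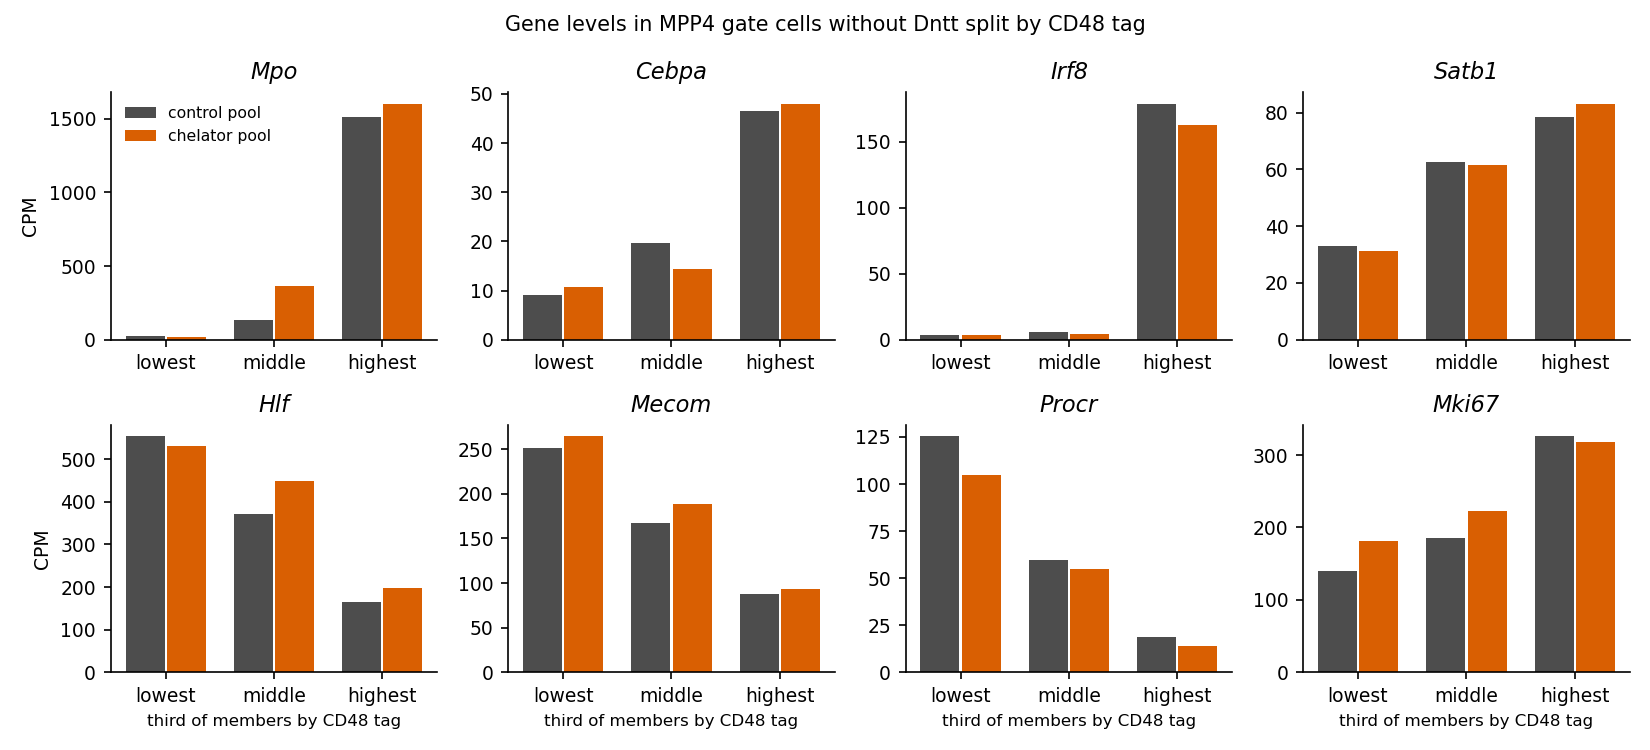
Bars give the level in CPM (linear axes from 0) of 8 genes in the lowest, middle and highest tertile of members by CD48 tag, for the control pool in grey and the chelator pool in orange, with no error bar. Mpo, Cebpa, Irf8, Satb1 and Mki67 are highest in the CD48-high tertile, where Mpo reaches 1512 and 1601 CPM, and Hlf, Mecom and Procr are highest in the CD48-low tertile.

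In single members the programmes overlapped. At 5000 UMIs 19.1% of control and 21.1% of chelator members held both Mpo and Hlf. Hlf was seen in 58.8% and 63.2% of members with Mpo and in 76.8% and 79.2% of those without. Procr was seen in 14% and 11.6% of members with Mpo and in 33.3% and 28.7% of those without. Both stem cell genes were thus seen in a smaller share of the members with Mpo than of those without, in both pools.

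The promoters of 3 neutrophil granule genes are shown because Mpo and Elane were highest in the CD48-high tertile. Elane was at 2.83 and 3.85 CPM in the lowest tertile, 1.84 and 230.1 CPM in the middle and 285 and 428 CPM in the highest, though 2 cells held most of its control UMIs. Prtn3, whose tertile levels were not computed, was at 652 and 679 CPM in the HSC gate and at 587 and 692 CPM in members. The sequences are the bases directly before the start of each gene in RefSeq (GRCm38.p6), read 5′ to 3′ on the gene's own strand, for Elane chr10:79886152-79886311, for Prtn3 (proteinase 3, next to Elane) chr10:79879507-79879666 and for Mpo chr11:87793544-87793783, all on the plus strand. Capitals mark GAGGAAGT, a form of the site of PU.1, an ETS factor of myeloid genes, which was searched on both strands in the 250 bases before the start and is found there at 2.44% of 32851 starts.
Elane: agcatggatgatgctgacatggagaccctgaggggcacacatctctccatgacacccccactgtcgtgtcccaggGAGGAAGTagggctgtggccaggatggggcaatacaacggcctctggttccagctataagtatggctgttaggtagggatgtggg
Prtn3: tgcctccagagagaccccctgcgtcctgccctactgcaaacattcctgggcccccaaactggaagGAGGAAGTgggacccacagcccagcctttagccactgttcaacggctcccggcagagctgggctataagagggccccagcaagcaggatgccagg
Mpo: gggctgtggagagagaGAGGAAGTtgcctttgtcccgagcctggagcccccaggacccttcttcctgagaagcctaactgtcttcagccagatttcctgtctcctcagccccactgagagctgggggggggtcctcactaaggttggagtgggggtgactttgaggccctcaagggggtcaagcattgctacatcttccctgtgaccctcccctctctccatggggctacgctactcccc
The match lies 85 to 78 bases before the start of Elane, 95 to 88 before that of Prtn3 and 224 to 217 before that of Mpo. It is a match of letters, not a measured site. Other motifs were searched as well, so the one shown is picked from a set. Sites of C/EBP and RUNX, the CRE and the TATA box had 0 matches in these 3 genes. MYB sites and the CCAAT box matched some of them. The shorter GAGGAA matched all 3 and 23.3% of starts.

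A small set of members carried transcripts of dendritic cells. Batf3 and Zbtb46, transcription factors of conventional dendritic cells, were seen in 32 control members (4.03%, 95% interval 2.77 to 5.64) and 17 chelator members (2.81%, 1.65 to 4.46). These cells had 3825 and 6885 CPM of H2-Aa, an MHC class II chain, against 116 and 112 CPM in the other members. They held 69.2% and 71.9% of the members' H2-Aa UMIs, 75.7% and 80.5% of those of Cd74, the invariant chain, 68.5% and 70.6% of Irf8 and 86.2% and 84.4% of Naaa, a lysosomal amidase. Their Kit level was lower, at 187 and 151 CPM against 286 and 302 CPM, as was Cd34, at 124 and 95.4 CPM against 504 and 511 CPM. The set was chosen after the values were seen. Its cells were deeper, with medians of 20950 and 20735 UMIs against 12812 and 13337 in the other members. Doublets were not called.

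Results on dendritic genes rest on these few cells. Against cells with Dntt, 5 of 8 dendritic cell genes were called higher in members (Cd74, H2-Aa, H2-Ab1, H2-Eb1 and Ciita) and 2 lower, with medians of 1.40 and 1.51. Without the cells with Batf3 or Zbtb46, in both classes, the median nearer to 0 was -0.11. Irf8 was then lower in members, with -1.65 as the log2 ratio nearer to 0 of the pools, and Naaa fell to 0.62 from 3.25. Within the CD48-high tertile Irf8 was at 179 and 163 CPM with these cells and at 56.5 and 47.8 CPM without 19 and 14 of them, still above the lowest tertile at 3.83 and 3.45 CPM. Siglech, the defining gene of plasmacytoid dendritic cells, was at 0 in all members. Cells with a Batf3 or Zbtb46 UMI also made up 1.56% and 0.741% of MPP4 gate cells with Dntt and 3.16% and 3.24% of the MPP3 gate. They made up 1.99% and 2.64% of the MPP1 gate and 4.03% and 3.27% of the HSC gate. These shares are at full depth, which differed between the classes. Median depth ran from 11638 UMIs in the MPP1 gate to 18614 in the MPP3 gate in control. In the HSC gate Irf8 was at 1.93 and 4.02 CPM and Naaa at 4.40 and 5.0 CPM over all its cells, so a UMI of Batf3 or Zbtb46 there did not come with the levels seen in members.

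Markers of other cell types were scarce. The 12 genes of T, NK and innate lymphoid cells summed to 29.3 and 31.5 CPM, with 5 of them at 0, and Cd3e at 0 in both pools. The 8 mature B cell genes summed to 37.4 and 39.4 CPM, the 10 genes of mature neutrophils and macrophages to 7.41 and 12.2 CPM and the 8 stromal and endothelial genes to 20.7 and 21.3 CPM. The 10 mast cell, basophil and eosinophil genes summed to 66.8 and 82.5 CPM against 341 and 124 CPM in the MPP3 gate.

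The first comparison of the regimens was the share of members among LSK cells. Among control cells 20.03% were members (95% Clopper-Pearson interval 18.8 to 21.3), and among chelator cells 15.1% (14 to 16.3), a difference of -4.90 points (-6.58 to -3.21). The difference was close in the sexes, at -5.33 points (-8.46 to -2.10) in Xist cells and -5.45 points (-7.76 to -3.16) in Y cells. The cells with Dntt of the same gate made up 17.8% and 16.9%, a difference of -0.930 points (-2.61 to 0.751), and here the sexes differed, at -6.86 points (-9.96 to -3.68) and 1.73 points (-0.618 to 4.05). Members were thus the smaller share after the chelator in either sex, while for the cells with Dntt the interval left out 0 in Xist cells and held it in Y cells.

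As a share of the MPP4 gate, members made up 52.9% in control and 47.3% in the chelator pool, a difference of -5.66 points (-9.43 to -1.89). Within the sexes it was 2.49 points (-5.09 to 10.0) in Xist cells and -9.93 points (-14.8 to -5.00) in Y cells. These shares are at full depth, and the gate's cells were deeper in the chelator pool, with medians of 14570 and 16496 UMIs. Thinned to 5000 UMIs per cell, 36.5% of control and 40.4% of chelator gate cells held a Dntt UMI. Cells without Dntt were thus still the smaller share of the gate after the chelator. The part of depth in the full-depth difference was not tested. The median CD135 CLR of all kept cells was lower in the chelator pool, at -0.613 and -0.731. When the tag was centred on the median of each pool, a setting chosen after the values were seen, the difference of the member share was -2.0 points (-3.74 to -0.255), smaller than with the tag as measured. Under the other alternatives tried the difference lay between -5.57 and -4.47 points.

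**Figure D4:**
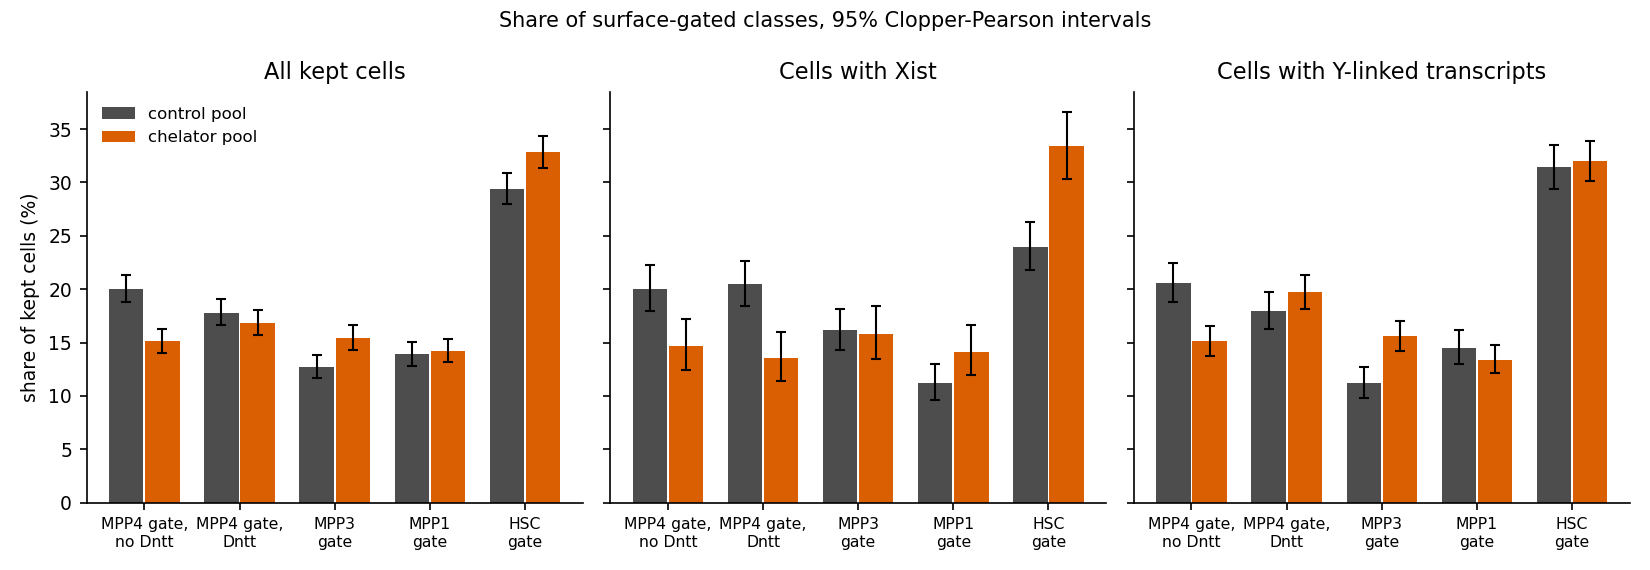
Bars give the percentage of kept cells in 5 surface-gated classes for the control pool in grey and the chelator pool in orange, over all kept cells, Xist cells and Y cells, with 95% Clopper-Pearson intervals that cover counting error only. Members, the first pair, are at 20.03% and 15.1% over all cells and lower after the chelator in either sex.

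The second comparison set the RNA of the chelator members beside that of the control members. With the same call in the single comparison (log2 ratio of at least 0.32 in size, interval leaving out 0, at least 200 UMIs in both pools together), 143 of 9257 measured genes were called higher in the chelator pool (1.54%) and 127 lower (1.37%), and the median log2 ratio was -0.0011. Weighting each cell equally and calling by the fold alone gave 227 and 312. In the sexes many genes went apart. Of 8873 genes, 46 had an interval above 0 in both sexes (0.518%) and 19 below 0 in both (0.214%), while 124 had intervals on opposite sides (1.40%).

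The gene with the highest ratio was Mid1, a microtubule-associated ubiquitin ligase on the X chromosome (169685199 to 169990798). It gave 166 UMIs in control and 305 UMIs in chelator members, 13.8 and 32.2 CPM, a log2 ratio of 1.22 (0.94 to 1.5), and was seen in 16.4% and 32.4% of cells. The ratio was 0.86 in Xist cells and 1.49 in Y cells. Nr4a1, an immediate-early nuclear receptor, was at 13.5 and 28.1 CPM, a ratio of 1.06 (0.77 to 1.35), with 0.62 and 1.19 in the sexes. Zfp951, a zinc-finger gene, was at 8.25 and 14.6 CPM, a ratio of 0.82 with 0.91 and 0.60. These genes were higher in each sex. They were not high in members alone, since in the chelator pool Mid1 was also at 43.0 CPM against 19.6 CPM in cells with Dntt and at 14.2 CPM against 6.33 CPM in the HSC gate. Nr4a1 was at 30.6 against 15.9 CPM and at 52.8 against 31.2 CPM in those classes. Zfp951 was at 13.8 against 10.6 CPM in cells with Dntt, 8.46 against 8.96 CPM in the MPP3 gate, 15.5 against 9.20 CPM in the MPP1 gate and 12.2 against 8.74 CPM in the HSC gate.

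Clec12a, an inhibitory C-type lectin of myeloid cells, was at 17.2 and 29.5 CPM, a log2 ratio of 0.78 (0.51 to 1.04), with 1.15 in Xist cells and 0.65 in Y cells. Its protein was read independently by the CD371 tag, which had a mean CLR of 1.27 ± 0.90 (SD over 795 cells) in control and 1.51 ± 0.90 (SD over 605 cells) in chelator members. The tag difference of 0.24 was the largest rise among 117 surface tags and was 0.33 and 0.21 in the sexes. RNA and tag of this gene were thus both higher in the chelator members. The tag was also higher after the chelator in the other classes, so its rise was not one of members alone. It was at 2.14 and 2.36 in cells with Dntt, 1.47 and 1.88 in the MPP3 gate and -0.16 and -0.036 in the HSC gate. Clec12a RNA was nearly level in cells with Dntt, at 59.7 and 63.8 CPM, where the tag rose. The RNA was at 26.1 and 35.1 CPM in the MPP3 gate, 2.37 and 3.65 CPM in the MPP1 gate and 0.422 and 1.03 CPM in the HSC gate. Cells of a pool are not replicates of the regimen. Csf2rb, the common beta chain of the interleukin 3 and GM-CSF receptors, was at 12.2 and 16.6 CPM, a ratio of 0.45 with 0.63 and 0.58 in the sexes. Bpifc was at 8.0 and 12 CPM, a ratio of 0.59.

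Other high ratios depended on few cells or on 1 sex. Elane gave 1446 UMIs in control and 2497 in chelator members, of which the 2 richest cells held 938 and 1302, and its log2 ratio of 1.13 (1.04 to 1.22) was 3.60 in Xist cells and 0.30 in Y cells. With the CD135 threshold lower by 0.25 it was 0.09, and with the threshold higher by 0.25 it was 2.46. Ms4a3, at 0.70, was 0.21 without the 2 richest cells of each pool, and Slpi, at 0.70, was 0.02. Tubb2a, a beta tubulin at 0.75, was 0.28 without the cells with Batf3 or Zbtb46, and Hist2h4, a histone gene at 0.57, was -0.44 in Xist cells and 1.22 in Y cells.

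**Figure D5:**
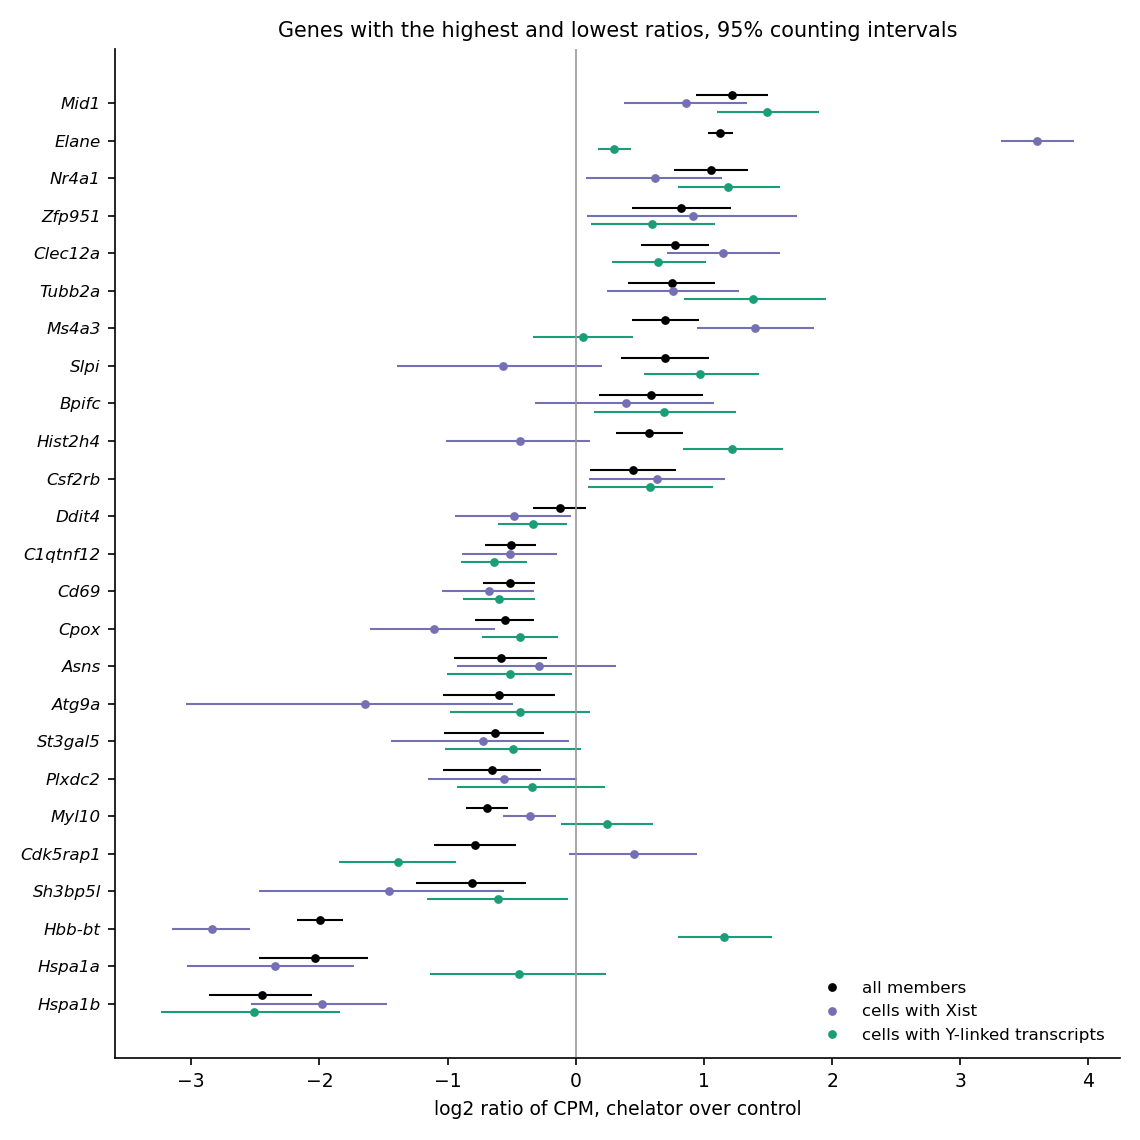
Points give the log2 ratio of CPM, chelator over control, with 95% counting intervals as lines, for 25 genes named for their ratio over all cells or in both sexes, in all members (black), Xist cells (purple) and Y cells (green). Mid1 lies at 1.22 and Hspa1b at -2.45 with both sexes on the same side, while Hbb-bt, Cdk5rap1, Myl10, Slpi and Hist2h4 have the sexes on opposite sides of 0.

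The lowest ratios were those of Hspa1b and Hspa1a, stress-inducible chaperones of the HSP70 family. Hspa1b gave 421 UMIs in control and 61 in chelator members, 35.1 and 6.44 CPM, a log2 ratio of -2.45 (-2.86 to -2.06), with -1.98 and -2.51 in the sexes. Hspa1a gave 296 and 57 UMIs, 24.7 and 6.01 CPM, a ratio of -2.04 (-2.47 to -1.62), -2.35 in Xist cells and -0.44 in Y cells. A UMI of Hspa1b was seen in 11.8% and 3.31% of members and of Hspa1a in 7.80% and 1.65%. In the chelator pool 2 cells held 37 of the 61 Hspa1b UMIs and 36 of the 57 Hspa1a UMIs, and without the 2 richest cells of each pool the ratios were -3.55 and -3.11. The other classes showed the same direction, with Hspa1b at 35.1 and 6.95 CPM in cells with Dntt, 43.9 and 7.81 CPM in the MPP3 gate and 8.98 and 3.19 CPM in the HSC gate. The pair was thus lower in the chelator pool across the LSK cells examined, not in members alone, and a difference of regimen and one of pool handling cannot be told apart.

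The genes are near-identical copies on chromosome 17, at 34956429 to 34959238 for Hspa1b and 34969359 to 34972156 for Hspa1a, so the split of reads between them is uncertain. Their promoters are shown because the pair carries the largest difference between the pools. The 160 bases before each start, from RefSeq (GRCm38.p6), at chr17:34972157-34972316 for Hspa1a and chr17:34959239-34959398 for Hspa1b on the minus strand, are read 5′ to 3′ on the gene's strand, and capitals mark a heat shock element, GAANNTTC, whose reverse complement is the same.
Hspa1a: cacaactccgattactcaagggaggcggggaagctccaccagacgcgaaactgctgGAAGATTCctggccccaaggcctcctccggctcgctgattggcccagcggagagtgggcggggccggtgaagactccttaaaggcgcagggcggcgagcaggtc
Hspa1b: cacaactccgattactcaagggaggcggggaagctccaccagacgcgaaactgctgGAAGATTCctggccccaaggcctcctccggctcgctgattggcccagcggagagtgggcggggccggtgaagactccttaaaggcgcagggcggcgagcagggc
The 160 bases differ at 1 position. The element lies 104 to 97 bases before each start and is found in the 250 bases before 6.69% of 32851 starts. Of the other motifs searched, the CCAAT box also matched both genes, and it is found at 33.8% of starts.

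Of 19 measured heat shock and unfolded protein genes 3 were called lower, the third being Hsph1, a nucleotide exchange factor of HSP70, at 54.6 and 41.8 CPM (-0.39, with -0.66 and -0.044 in the sexes). The list's median was -0.091. The constitutive Hspa8 was at 2283 and 2185 CPM, and Dnajb1, an HSP40 partner, at 103 and 94.2 CPM, neither of them called. Within this list the inducible pair had the lowest ratios.

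Other genes were lower by smaller amounts, some of them in both sexes. Cpox, the coproporphyrinogen oxidase of haem synthesis, was at 37.6 and 25.6 CPM, a log2 ratio of -0.55 (-0.78 to -0.32), with -1.10 in Xist cells and -0.44 in Y cells, and -0.31 without the cells with Batf3 or Zbtb46. Sh3bp5l, a guanine nucleotide exchange factor, was at 12.6 and 7.17 CPM, a ratio of -0.81 with -1.45 and -0.61. Cd69, an early activation antigen, was at 47.2 and 33.0 CPM (-0.52), but at -0.04 when cells without Dntt were chosen after thinning to 5000 UMIs. C1qtnf12, a secreted C1q family protein, was at 50.4 and 35.4 CPM (-0.51), and at -0.04 without the cells with Batf3 or Zbtb46. Asns, the asparagine synthetase, was at 15.7 and 10.4 CPM (-0.58). Its ratio was -0.29 (-0.92 to 0.32) in Xist cells, an interval that held 0, and -0.51 (-1.0 to -0.032) in Y cells. Hbb-bt, an adult beta-globin, at -1.99, was 0.23 without the 2 richest cells of each pool and had opposite signs in the sexes. Cdk5rap1, a tRNA-modifying enzyme at -0.78, was at 0.45 (-0.051 to 0.95) in Xist cells and -1.38 in Y cells. Over all cells it was also lower in the chelator pool in the other classes. It was at 20.9 and 12.4 CPM in cells with Dntt, 20.8 and 13.1 CPM in the MPP3 gate, 22.6 and 12.5 CPM in the MPP1 gate and 28.2 and 13.1 CPM in the HSC gate. Myl10, a myosin light chain at -0.69, was at -0.36 in Xist cells and 0.24 in Y cells.

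By list, the granulocyte-monocyte genes had the most calls upward. Of 16 measured 5 were called higher and 0 lower, where 1.54% of all genes measured were called higher. The median was 0.16, with 0.24 and 0.12 in the sexes. The 5 called were Elane, Ctsg (cathepsin G, 207 and 259 CPM, 0.32), Csf2rb, Ms4a3 and Cst7 (a cystatin, 29.8 and 42.2 CPM, 0.50). Of these, Elane and Ms4a3 depended on few cells, as given above. In Y cells Elane was at 0.30 and Ms4a3 at 0.055. Mpo was at 682 and 838 CPM, a log2 ratio of 0.30 (0.25 to 0.34) that was under the fold of a call, with 0.45 and 0.25 in the sexes. The CD48-high tertile, which held most Mpo, made up 31.4% of control and 35.9% of chelator members, and the part of this in the list was not tested.

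Lymphoid and stem cell lists did not differ in this way. Of 12 lymphoid genes 1 was called lower, Foxo1, a forkhead factor, at 15.5 and 12 CPM (-0.37), and the median was 0.051. Of 15 stem cell genes 0 were called, with a median of -0.047 and with 0.14 and -0.18 in the sexes. Hlf was at 333 and 356 CPM, with 0.38 in Xist cells and -0.11 in Y cells. Procr was at 59.8 and 48.6 CPM, a log2 ratio of -0.30 (-0.47 to -0.13) below the fold of a call, with -0.35 and -0.44. Flt3 (-0.03), Cd34 (0.04) and Satb1 (0.06) had small ratios, and Mgst1 was at 0.29 (0.04 to 0.54).

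Immediate-early genes were higher in part. Of 17 measured 3 were called higher, Nr4a1, the AP-1 subunit Jund (286 and 361 CPM, 0.34) and the phosphatase gene Dusp1 (139 and 174 CPM, 0.33), with a median of 0.20 that was -0.073 in Xist cells and 0.32 in Y cells. Fos was at 281 and 335 CPM, with -0.37 and 0.43 in the sexes, and Egr1 at 80.0 and 97.7 CPM, with 0.57 and 0.05. Jund and Dusp1 were at -0.014 and -0.073 in Xist cells, so Nr4a1 alone of the called genes was higher in both. Myc, the growth regulator, was at 412 and 460 CPM, a log2 ratio of 0.16 that was 0.18 and 0.17 in the sexes and under the fold of a call.

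Genes of iron handling, the target of the drug, showed few differences. In the list for uptake, storage and export of iron 0 of 18 measured genes were called, with a median of -0.0088. Tfrc, the transferrin receptor, was at 12.7 and 12.3 CPM, a log2 ratio of -0.04 (-0.40 to 0.32). Fth1, ferritin heavy chain, was at 1872.7 and 1922.5 CPM (0.04, 0.01 to 0.07) and Ftl1, ferritin light chain, at 146 and 147 CPM (0.01, -0.09 to 0.11). Slc40a1, the iron exporter ferroportin, gave 18 and 14 UMIs, too few for a comparison.

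Of 10 haem synthesis genes Cpox was the 1 called, with a list median of -0.13, and of 23 iron-sulfur cluster assembly genes 1 was called lower, Ciao3, a late-acting assembly factor, at 20.8 and 15.3 CPM (-0.44, with -0.43 and -0.45 in the sexes). Of 28 iron- and oxoglutarate-dependent dioxygenases 0 were called, of 24 antioxidant and ferroptosis genes 0, and of 17 targets of hypoxia-inducible factors 1 was higher, Mxi1, a MAX-binding repressor, at 29.4 and 38.7 CPM (0.40). Of 27 genes of oxidative phosphorylation, 24 of ribosome biogenesis, 27 of S phase and 16 of glycolysis 0 were called. The shares called were thus near or below those of all genes for most of these lists.

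Erythroid genes had a median log2 ratio of -0.72, with 6 of 10 called lower, and this rested on few cells. Car1, a carbonic anhydrase, was at 137 and 63.5 CPM, with -5.86 in Xist cells and 0.033 in Y cells. The median of the list was -0.08 without the 2 richest cells of each gene and 0.11 in Y cells. In the type I interferon list 2 of 15 were higher, Oasl2 (33.3 and 44.2 CPM, 0.41) and Rtp4 (49.0 and 62.0 CPM, 0.34). Ccl3, an inflammatory chemokine, was at 62.6 and 91.5 CPM (0.55, with 0.31 and 0.39 in the sexes).

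Surface tags gave a second readout. Between the classes, members lay below the cells with Dntt in CD62L (L-selectin) by -1.06 in control and -0.95 in the chelator pool, in CD371 by -0.87 and -0.85 and in CD48 by -0.82 and -0.84. They lay above them in CD55, a complement regulator, by 1.0 and 1.01, in CD49b by 0.45 and 0.59, in CD9 by 0.45 and 0.40 and in CD41, the platelet integrin, by 0.40 and 0.40. Against the MPP3 gate, whose choice used CD48 and CD135, members were higher in Sca-1 (0.34 and 0.35) and CD86 (0.41 and 0.21). The CD41 tag and Itga2b RNA, which encodes it, were both higher in members than in cells with Dntt.

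Between the pools the tags differed by less. The largest falls among members were in CD62P (P-selectin), by -0.31, from a mean CLR of -0.057 ± 0.68 (SD over 795 cells) to -0.36 ± 0.73 (SD over 605 cells), in CD93 by -0.28 and in CD71, the transferrin receptor, by -0.22. In Xist cells and in Y cells these were -0.41 and -0.27 for CD62P, -0.40 and -0.22 for CD93 and -0.28 and -0.15 for CD71. The same falls were seen in the other classes. CD62P was at -0.22 and -0.60 in cells with Dntt and 0.19 and -0.15 in the HSC gate, CD93 at -0.42 and -0.71 and at -0.046 and -0.30, and CD71 at -0.24 and -0.47 and at -0.83 and -1.09. They were thus differences between the pools and not of members alone. CD45 was lower by -0.21 and CD34 by -0.10 in members. The isotype controls differed by -0.039 to 0.119 and the surface tags by -0.307 to 0.241, so these falls and the rise of CD371 lay outside the range of the 9 isotypes. Sca-1 (0.012) lay inside that range, and CD117 (-0.045) and CD150 (-0.042) lay just below it. CD135, which the rule used, was lower by -0.080 and also lay below it. CD48 differed by 0.061, with -0.26 in Xist cells and 0.26 in Y cells. Tfrc RNA, which encodes CD71, had a log2 ratio of -0.04 with the wide interval given above, while the CLR is in natural log. Whether the RNA fell along with the CD71 tag cannot be decided from these counts.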

How the data were processed

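UMI counts per gene and per antibody tag were deposited by the authors as 1 filtered matrix per pool. The submitters' processing notes name Cell Ranger 7.0.0, Seurat 4.3.0 and mm10, while the file headers give version 7.0.1. Which annotation release was used is not stated there. The rule's minimum of 500 genes and limit of 10% mitochondrial UMIs left out 57 and 39 barcodes. Doublets were not called, and cells with both sex markers were left out in an alternative. Deposited counts were summed over the cells of a class and given as CPM of gene UMIs and as log2 ratios with exact conditional binomial 95% intervals. Shares carry Clopper-Pearson intervals. Both cover counting error only. With 1 pool per condition there was no test across samples, and no p-value is given. For detection and cycle values each cell was thinned to 5000 UMIs, leaving out shallower cells. CD48 positivity used a threshold of 0.534 CLR from a mixture of 2 components. A cell was sexed by at least 2 Xist UMIs without Y-linked UMIs, or at least 1 Y-linked UMI without Xist.

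Named genes were the markers, genes of the lists, and the highest and lowest ratios among called genes of each comparison. The members and the 33 lists were chosen with earlier results of these data known. Ratios and calls were checked on simulated counts. Python 3.11.15, NumPy 2.4.6, SciPy 1.17.1, pandas 2.3.3, scikit-learn 1.9.0 and matplotlib 3.10.9 were used.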

Additional observations from a re-analysis of the deposited data

Results flagged for a closer look

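Some genes had ratios of chelator over control that went opposite ways in the sexes among members, and the difference between the sexes was not tested. Fos, an AP-1 subunit, had a log2 ratio of -0.37 in Xist cells and 0.43 in Y cells. Hbb-bt, a beta-globin, had -2.84 and 1.16, and the 2 richest cells of each pool decided its pooled value. Hlf, a stem cell transcription factor, had 0.38 and -0.11.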

How the results depend on the processing

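No paired analysis was possible because there was 1 pool per condition. Over 226 genes and lists and 21 alternatives, 3673 of 4136 values moved by less than their counting interval or stayed within 1.5 times, 447 moved and 16 changed sign. 3 alternatives were chosen after seeing the data: CLR without isotypes, CD135 centred per pool, and cells with Batf3 or Zbtb46 left out. CLR without the hashtags was not run, since the hashtags are no part of the CLR. The member share differed by -2.0 points with CD135 centred. Calls of chelator against control numbered 74 with a minimum of 500 UMIs and 539 with equal cell weight (227 higher, 312 lower). Against cells with Dntt there were 474 in Xist cells. Against the MPP3 gate there were 110 in Xist cells and 1013 with equal weight (561 higher, 452 lower). The sign changed in Xist cells for Cdk5rap1 (0.45), Hist2h4 (-0.44) and Slpi (-0.56), and against the MPP3 gate for Hist1h2bl (0.22), Mgst1 (-0.062), Ms4a4b (0.14) and Ndn (-0.29). In Y cells it changed for Hbb-bt (1.16), Myl10 (0.24) and the erythroid list (0.11), and without the 2 richest cells for Hbb-bt (0.23). Without cells with Batf3 or Zbtb46 it changed against cells with Dntt for Ckb (-0.34) and the dendritic list (-0.11), and against the MPP3 gate for Irf8 (-0.23). Mpo against cells with Dntt was -0.12 without the deepest cells and -0.11 with equal weight. Beyond what each alternative leaves out, the cause was not tested.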
